A study of Mus musculus with 40 samples.

Results

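Endothelial adhesion and blood-brain barrier genes were followed across 8 groups of neonatal mouse brain. The list held 10 genes: the adhesion molecules Icam1, Vcam1, Sele and Selp, the junction genes Cldn5, Ocln and Cdh5, the transporters Abcb1a and Mfsd2a, and the transglutaminase Tgm2. They were taken by gene symbol from the array annotation, with the highest-mean probe set for each gene. Of the 10 genes, 9 had a probe set that carried their symbol alone, out of 19937 genes measured, and each of the 9 had a single probe set. Selp was not analysed here.

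Endothelial cells of brain vessels normally carry few adhesion molecules, and inflammatory signals make them display selectins, on which leukocytes roll, and the immunoglobulin-type molecules ICAM and VCAM, which leukocyte integrins grip. The same cells form the blood-brain barrier, with tight junctions between neighbours, efflux pumps that return drugs to the blood, and a low rate of vesicle transport through the cell. In bulk brain RNA, fewer cells of a type and less RNA per cell cannot be told apart.

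The study measured total RNA of postnatal day 9 C57/Bl6 mouse brain on Affymetrix arrays, with 5 arrays in each of 8 groups, and values are log2 signals after RMA, a method that normalises arrays and summarises probes into probe sets. It set bacterial lipopolysaccharide (LPS), a trigger of innate immunity, and hypoxia-ischaemia (HI), a model of neonatal brain injury, against the synthetic immunomodulatory peptide IDR-1018 (IDR). The LPS group was sampled 6 h after LPS, and its label names no vehicle. The Vehicle group was sampled 10 h after vehicle. The LPS with IDR group was given the peptide 4 h ahead of LPS and sampled 6 h after LPS, and the IDR group was sampled 10 h after the peptide. In the LPS/HI groups, vehicle was given 4 h ahead of LPS, HI came 14 h after LPS, and tissue was taken 6 h after HI from the injured left and the uninjured right hemisphere. The LPS/HI with IDR groups had the peptide in place of vehicle, again with the injured and the uninjured hemisphere. All LPS/HI animals carried LPS as well as HI, so the hemispheres differ in the injury and not in LPS. The labels do not say whether arrays of a group came from separate animals, so p-values measure the spread between these samples.

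The 40 arrays had median log2 signals between 6.99 and 7.13, and their pairwise correlations over genes ran from 0.986 to 0.998. Sex-linked transcripts were not balanced between groups. Signal of Xist alone, with none from Y-linked genes, was found on 5 of 5 LPS arrays against 2 of 5 Vehicle arrays, on 2 of 5 LPS with IDR arrays against 1 of 5 IDR arrays, and on 3 or 4 of 5 arrays in each LPS/HI group. Injured LPS/HI replicate 3 held both signals. Neuronal markers, 10 genes, averaged 11.5 on the log2 scale in both injured groups and 11.7 in the other 6 groups. Their array means ran from 11.45 to 11.60 injured and 11.68 to 11.75 uninjured without peptide, and from 11.49 to 11.57 injured and 11.67 to 11.73 uninjured with peptide, with no overlap. Neurod6, a neuronal transcription factor, fell with injury by 0.73 without and 0.77 with peptide, on the log2 scale (limma adjusted p = 0.0112 and 0.0255). The part of this neuronal shift in the injury results was not tested. Endothelial markers, 14 genes, averaged 8.02 to 8.33. Olfactory receptor genes, taken as a rough guide to background, had a 95th percentile of 6.01, and in each group none of the 14 endothelial markers lay under it.

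Promoters of Icam1 and Sele are shown because these were the adhesion molecules whose signal rose in the injured hemisphere without peptide. The bases before the annotated start are from RefSeq (GRCm38.p6), where 6 of the 9 measured genes had an entry, and are read 5′ to 3′ on the gene's strand. The Icam1 stretch lies at chr9:21015690-21015939 and the Sele stretch at chr1:164047984-164048233, both on the plus strand, directly upstream of the gene. Capitals mark matches, on either strand, to an NF-kB-like motif (GGNNTTTCC), an AP-1 motif (TGANTCA) or a STAT-type GAS motif (TTCNNNGAA).
Icam1: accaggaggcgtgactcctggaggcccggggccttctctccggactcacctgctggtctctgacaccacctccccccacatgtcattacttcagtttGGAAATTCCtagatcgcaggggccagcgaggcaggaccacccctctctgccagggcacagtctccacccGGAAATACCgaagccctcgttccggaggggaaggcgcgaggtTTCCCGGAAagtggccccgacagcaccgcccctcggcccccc
Sele: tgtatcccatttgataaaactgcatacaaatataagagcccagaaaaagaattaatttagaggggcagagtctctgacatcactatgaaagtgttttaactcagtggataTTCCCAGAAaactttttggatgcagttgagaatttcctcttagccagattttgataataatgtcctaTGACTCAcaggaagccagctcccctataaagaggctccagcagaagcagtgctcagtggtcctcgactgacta
NF-kB, AP-1 and STAT proteins are transcription factors of the inflammatory response. The Icam1 stretch held the NF-kB-like motif at 153 to 145 and at 84 to 76 bases before the start, and the GAS motif at 42 to 34 bases. The Sele stretch held the GAS motif at 140 to 132 bases and the AP-1 motif at 73 to 67 bases before the start. No marked match overlapped another motif's. Among all 32851 RefSeq mouse promoters of the same 250 bases, 4.93% held the NF-kB-like motif, 6.75% the AP-1 motif and 7.02% the GAS motif. In the promoters of Cldn5, Ocln, Abcb1a and Mfsd2a none of the 3 motifs was found in this window. A match describes letters and is not evidence of binding.

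**Figure D1:**
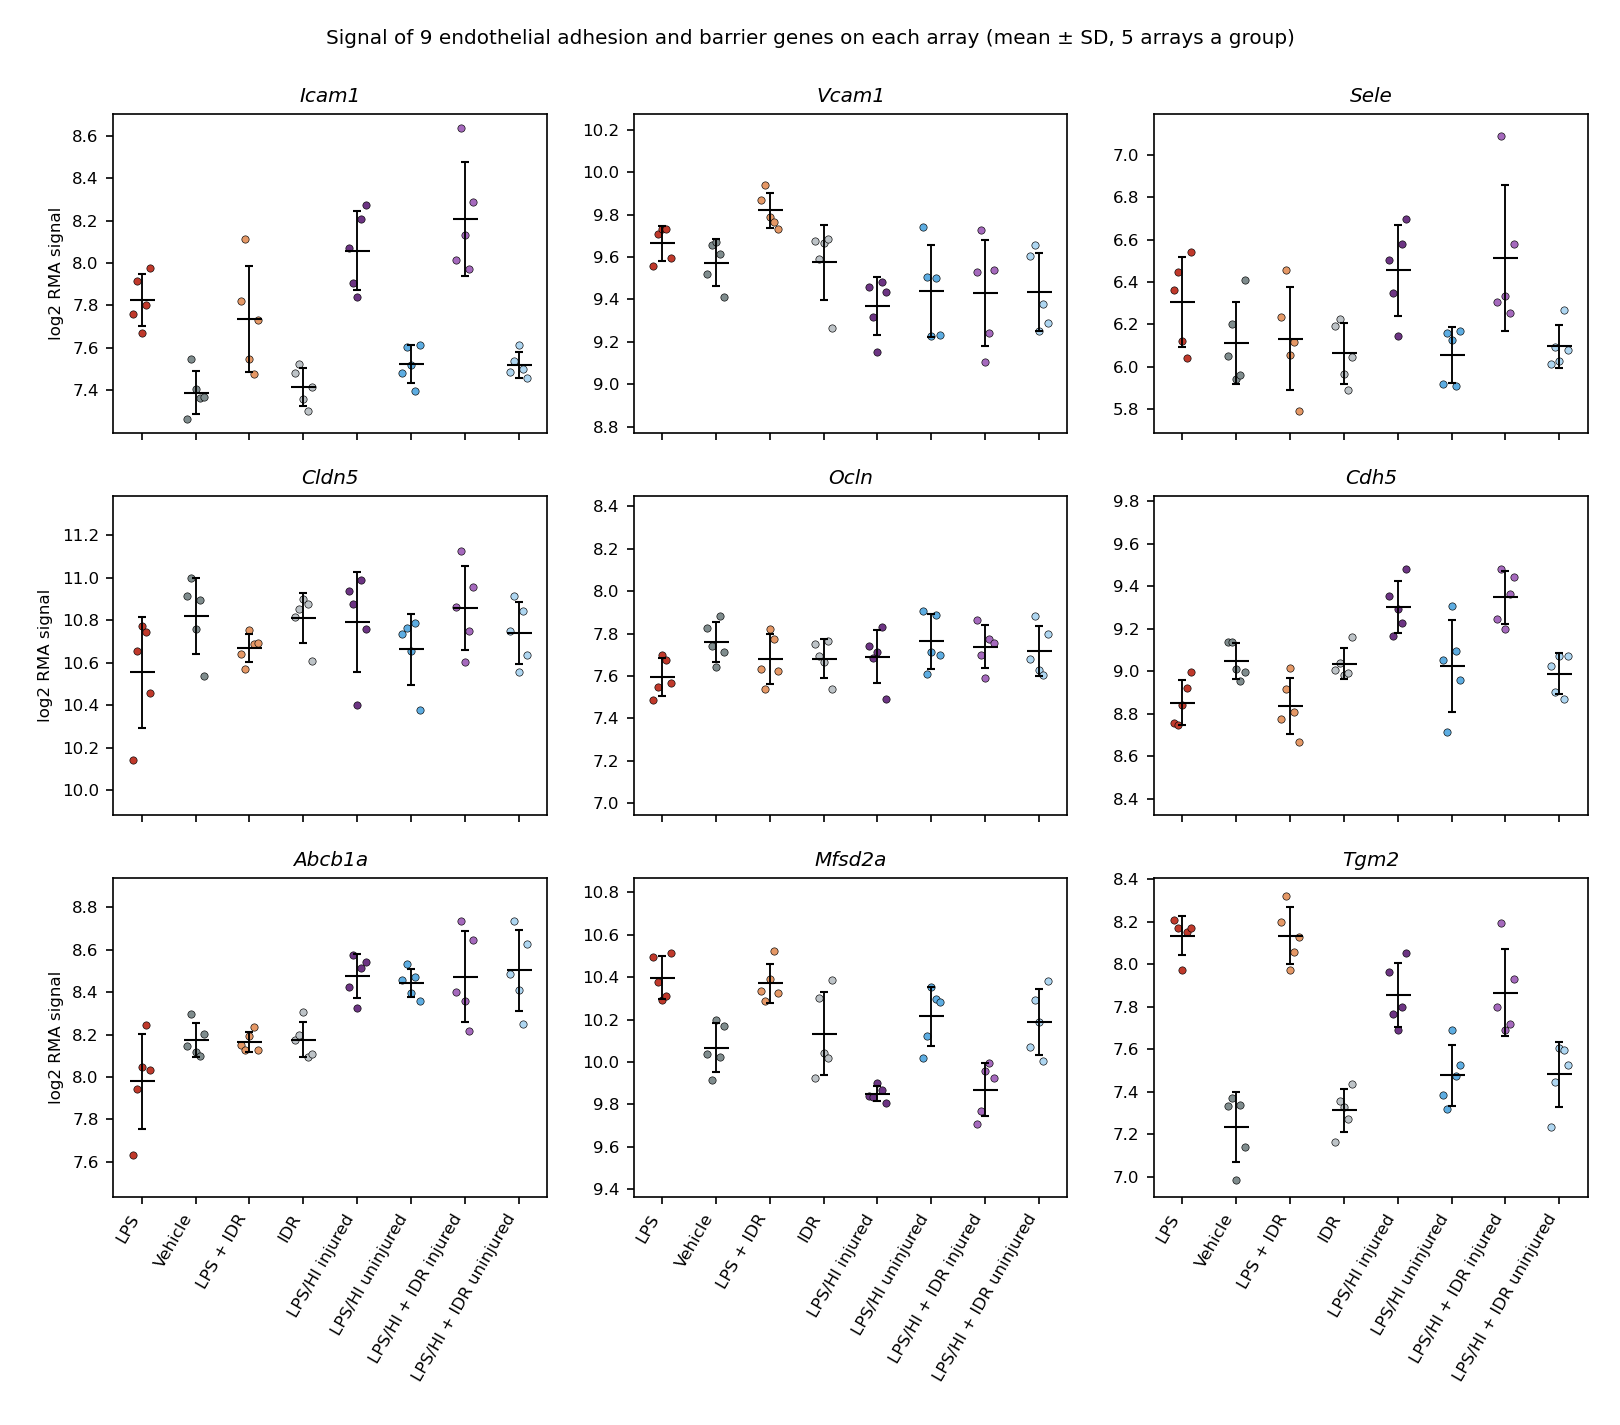
Log2 RMA signal (vertical axis) of the 9 measured genes on each array, by group (horizontal axis), with points for arrays and bars for the mean ± SD of 5 arrays. Icam1 was highest in the 2 injured groups, Tgm2 in the 2 groups sampled 6 h after LPS, and Mfsd2a lowest in the injured groups. Each panel spans 1.5 log2 units.

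Across the 8 groups, the signal of Tgm2 spanned 0.90 on the log2 scale between its highest and lowest group means, and that of Icam1 0.82. The span was 0.55 for Mfsd2a, 0.52 for Abcb1a, 0.51 for Cdh5, 0.46 for Sele, 0.45 for Vcam1, 0.30 for Cldn5 and 0.17 for Ocln. The plot of signals by group shows that different conditions set these spans. For Icam1 and Sele the injured hemisphere stood highest, for Tgm2 and Mfsd2a the groups taken 6 h after LPS, and for Abcb1a the 4 LPS/HI groups.

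After LPS alone, 2 of the 9 genes rose against Vehicle, Tgm2 and Icam1, where 0.732% of all genes rose and 0.833% were called in either direction (limma, Benjamini-Hochberg adjusted p under 0.05 over 19937 genes). Of the animals given peptide, LPS raised 1 of 9, Tgm2, where 1.16% of all genes rose and 1.47% were called. Without peptide, 3 of 9 rose in the injured hemisphere against the uninjured one (Icam1, Sele and Tgm2) and 1 fell (Mfsd2a). In that comparison 2.18% of all genes rose, 0.813% fell and 2.99% were called. With the replicate number as a block the same 4 members were called there, where 10.2% of all genes were. In animals given peptide, 2 of 9 rose with injury (Icam1 and Cdh5), where 1.8% of all genes rose and 2.5% were called. The median difference of the 9 genes was 0.13 without and 0.12 with peptide for injury, beside 0.01 and 0.00 for all genes. For LPS it was 0.09 without and 0.07 with peptide, beside -0.02 for all genes in each.

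**Figure D2:**
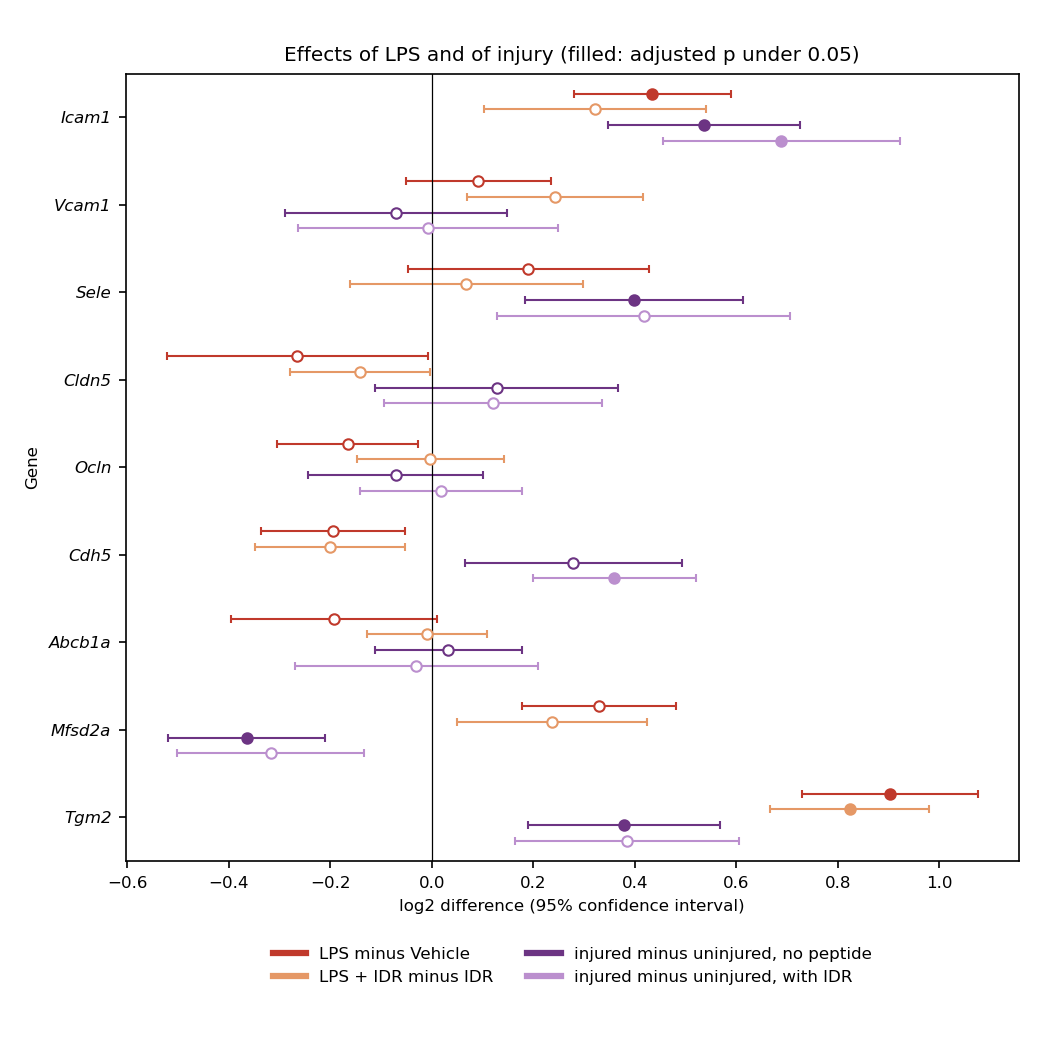
Log2 difference with its 95% confidence interval (horizontal axis) for each of the 9 genes (rows), for LPS against Vehicle, LPS with IDR against IDR, and injured against uninjured hemisphere without and with peptide, 5 arrays a group. Filled points mark an adjusted p under 0.05. Tgm2 stood furthest right after LPS at 0.90 and 0.82, and Icam1 after injury at 0.54 and 0.69.

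A ligand of leukocyte integrins, Icam1 (probe set 10583519), rose after LPS alone and in the injured hemisphere in both peptide arms. Which cells of the bulk tissue carried the rise of Icam1 was not tested. Its log2 signal was 7.76, 7.92, 7.67, 7.80 and 7.97 on the LPS arrays, against 7.27, 7.55, 7.40, 7.36 and 7.37 on the Vehicle arrays. Every LPS array stood above every Vehicle array. The means were 7.82 ± 0.12 in LPS and 7.39 ± 0.10 in Vehicle brains (SD, n = 5 each), a log2 difference of 0.43 with a standard error of 0.07, or 1.35-fold (limma adjusted p = 0.00747). Groups without overlap in either direction were seen for 2% of all genes in this comparison. With Xist as a covariate the difference was 0.42 and the adjusted p was 0.153, and among arrays with Xist alone it was 0.42 (5 LPS and 2 Vehicle arrays).

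With peptide, the LPS arrays of Icam1 spread more widely, at 7.82, 8.11, 7.55, 7.48 and 7.73, against 7.48, 7.52, 7.36, 7.30 and 7.42 on IDR arrays. Replicate 4 after LPS lay within the IDR range, and the other 4 lay above it. The difference was 0.32 ± 0.10 (SE) with a limma adjusted p of 0.22. The LPS effect with peptide minus that without was -0.11, with a 95% interval of -0.38 to 0.16 (interaction, adjusted p = 0.883).

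In the injured hemisphere Icam1 was 8.07, 7.91, 7.84, 8.20 and 8.27, against 7.48, 7.60, 7.52, 7.40 and 7.61 in the uninjured hemisphere. All injured samples exceeded all uninjured ones, and 5.03% of all genes had groups apart in either direction. The means were 8.06 ± 0.19 injured and 7.52 ± 0.09 uninjured (SD, n = 5 each), a difference of 0.54 ± 0.09 (SE), or 1.45-fold (limma adjusted p = 0.00534). With peptide the injured samples had 8.01, 8.64, 8.13, 7.97 and 8.29, against 7.48, 7.54, 7.61, 7.50 and 7.46 uninjured, again without overlap. That difference was 0.69 ± 0.11 (SE), or 1.61-fold (limma adjusted p = 0.00527). With peptide 5.12% of all genes had groups apart in either direction.

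Against Vehicle, Icam1 in the injured hemisphere was higher by 0.67 ± 0.09 (SE), or 1.59-fold (limma adjusted p = 3.15e-04), in a comparison where 4 of the 9 members rose, 4.45% of all genes rose and 8.34% were called. With the replicate number as a block, 6 members were called there, Sele higher and Mfsd2a lower being added, where 11.5% of all genes were called. These groups had different treatments, so that block does not pair animals. The uninjured hemisphere, taken at the same time, averaged 7.52 ± 0.09 against 7.39 ± 0.10 in Vehicle, a difference of 0.13 with a 95% interval of -0.01 to 0.28 (limma adjusted p = 0.823). None of the 9 members was called by limma there, where 0.436% of all genes were, and 2 members and 1312 genes had an unadjusted p under 0.05. The uninjured hemisphere and the LPS group, taken 6 h after LPS, differed in time and in HI together. The LPS label also names no vehicle, and Xist alone was found on 4 of 5 uninjured against 5 of 5 LPS arrays. These differences cannot be told apart. Icam1 was lower in the uninjured hemisphere than in LPS by 0.30 on the log2 scale, with no overlap, where 1.2% of all genes had groups apart. The limma adjusted p was 0.209. Its mean over both peptide arms, an alternative added after the data were seen, was -0.26 (adjusted p = 0.0392), where 1.42% of all genes were called.

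E-selectin (Sele, probe set 10351182), on which leukocytes begin to roll, had a mean log2 signal of 6.22 over 40 arrays, close to the 6.01 taken as a guide to background. In the injured hemisphere it was 6.50, 6.35, 6.15, 6.58 and 6.70, against 5.92, 6.16, 6.12, 5.91 and 6.17 in the uninjured hemisphere. Injured replicate 3, the array with both sex-linked signals, lay within the uninjured range and the other 4 lay above it. The difference was 0.40 ± 0.10 (SE), or 1.32-fold (limma adjusted p = 0.0485). The call was lost in 9 of 10 fits that left out 1 array each, with adjusted p up to 0.131, and held without injured replicate 3, at 0.48 and 0.0135. These fits had no block. With all arrays and the replicate number as a block the limma adjusted p was 0.0259, where 10.2% of all genes were called.

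With peptide, injured Sele was 6.31, 7.09, 6.34, 6.26 and 6.58, against 6.01, 6.09, 6.03, 6.27 and 6.08 uninjured. Replicate 2 of the injured samples was the highest of all 40 arrays, and injured replicate 4 lay just under uninjured replicate 4. The difference was 0.42 ± 0.13 (SE) with a limma adjusted p of 0.135, and 0.27 without injured replicate 2. The mean of the injury effects over both peptide arms, an alternative added after the data were seen, was 0.41 (adjusted p = 0.00341), where 12.8% of all genes were called. Against Vehicle, Sele in the injured hemisphere without peptide was higher by 0.34 ± 0.11 (SE; limma adjusted p = 0.073). That adjusted p was 0.0185 with the replicate number as a block, 0.0231 without injured replicate 3 and 0.026 without Vehicle replicate 5. The other fits that left out 1 array each did not call it, with adjusted p up to 0.174. After LPS alone Sele averaged 6.30 ± 0.21, against 6.11 ± 0.19 in Vehicle brains (SD, n = 5 each), and the groups overlapped (limma adjusted p = 0.909).

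Vcam1 (probe set 10501608), whose protein binds the alpha-4 integrin of lymphocytes and monocytes, was called in none of the comparisons of 5 arrays against 5. After LPS it was 9.56, 9.71, 9.73, 9.73 and 9.59, against 9.52, 9.66, 9.67, 9.61 and 9.41 in Vehicle brains, with overlapping groups. The difference was 0.09, with a 95% interval of -0.05 to 0.23 (limma adjusted p = 0.924). In LPS with IDR brains it was 9.87, 9.94, 9.79, 9.76 and 9.73, against 9.67, 9.59, 9.67, 9.69 and 9.27 in IDR brains. All LPS with IDR arrays stood above all IDR arrays, in a comparison where 3.42% of all genes had groups apart in either direction. The difference was 0.24 ± 0.08 (SE; limma adjusted p = 0.251). IDR replicate 5, at 9.27, stood apart from the other 4.

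Between the hemispheres Vcam1 averaged 9.37 ± 0.14 injured and 9.44 ± 0.22 uninjured without peptide, a difference of -0.07 with a 95% interval of -0.29 to 0.15. With peptide it averaged 9.43 ± 0.25 injured and 9.44 ± 0.18 uninjured (SD, n = 5 each). In the uninjured hemisphere against LPS, the mean over both peptide arms was -0.30 for Vcam1 (adjusted p = 0.0139), where 1.42% of all genes were called. The fit without peptide alone gave -0.22 and an adjusted p of 1.

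Among 16 other genes of endothelial adhesion or activation, LPS raised 1, Lrg1, a glycoprotein of activated vessels. It rose by 0.53 without and 0.53 with peptide (limma adjusted p = 0.0199 and 0.016). Its mean was 6.22 in LPS and 5.69 in Vehicle brains, 6.21 in LPS with IDR and 5.68 in IDR brains, so both groups without LPS lay under the 6.01 taken as a guide to background. Injury raised 2 of the 16 in each arm, Esm1, a proteoglycan of sprouting endothelium, and Pecam1, the junctional adhesion molecule that leukocytes cross. Esm1 was higher by 0.40 without and 0.58 with peptide, and Pecam1 by 0.39 and 0.46 (limma adjusted p = 0.0386, 0.00344, 0.0176 and 0.0395 in that order). Esm1 averaged 6.13 injured and 5.73 uninjured without peptide, 6.27 injured and 5.69 uninjured with peptide, so its uninjured means also lay under 6.01. None of the 16 fell with LPS or between the hemispheres. Of all genes, LPS raised 0.732% without and 1.16% with peptide, and injury raised 2.18% and 1.8%. Medians of the 16 were 0.02 after LPS and 0.00 after injury without peptide, beside -0.02 and 0.01 for all genes.

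Of 10 measured leukocyte partners of adhesion molecules, none was called after LPS in either arm. Cd44, a hyaluronan receptor that also binds selectins, rose with injury by 0.73 without and 0.79 with peptide (limma adjusted p = 4.37e-05 and 1.05e-04). Cd44 is also made by brain cells. Itgam and Itgb2, integrin chains of myeloid cells and microglia that bind ICAM, were higher in the uninjured hemisphere than in Vehicle by 0.71 and 0.36, and in the injured hemisphere by 0.89 and 0.45 (limma adjusted p = 0.00116, 0.0244, 2.85e-05 and 0.00277 in that order). Cd44 was also higher in the injured hemisphere than in Vehicle, by 0.66 (limma adjusted p = 1.69e-05). Itga4, the alpha-4 integrin chain that binds VCAM, was lower there by 0.33 on the log2 scale (limma adjusted p = 0.0138), so 3 of the 10 rose and 1 fell. In that comparison 4.45% of all genes rose and 8.34% were called. Neutrophil markers averaged 5.35 injured and 5.26 uninjured without peptide, 5.35 and 5.22 with peptide, with 8 or 9 of the 11 under the olfactory receptor 95th percentile and none called. Monocyte markers averaged 6.00 in LPS and 5.75 in Vehicle brains, with 3 of the 6 under that percentile in each group. Of the 6, 1 was called, Ms4a6c, at 0.98 (limma adjusted p = 1.54e-06), where 0.833% of all genes were called. The part of these markers in the adhesion results was not tested.

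**Figure D3:**
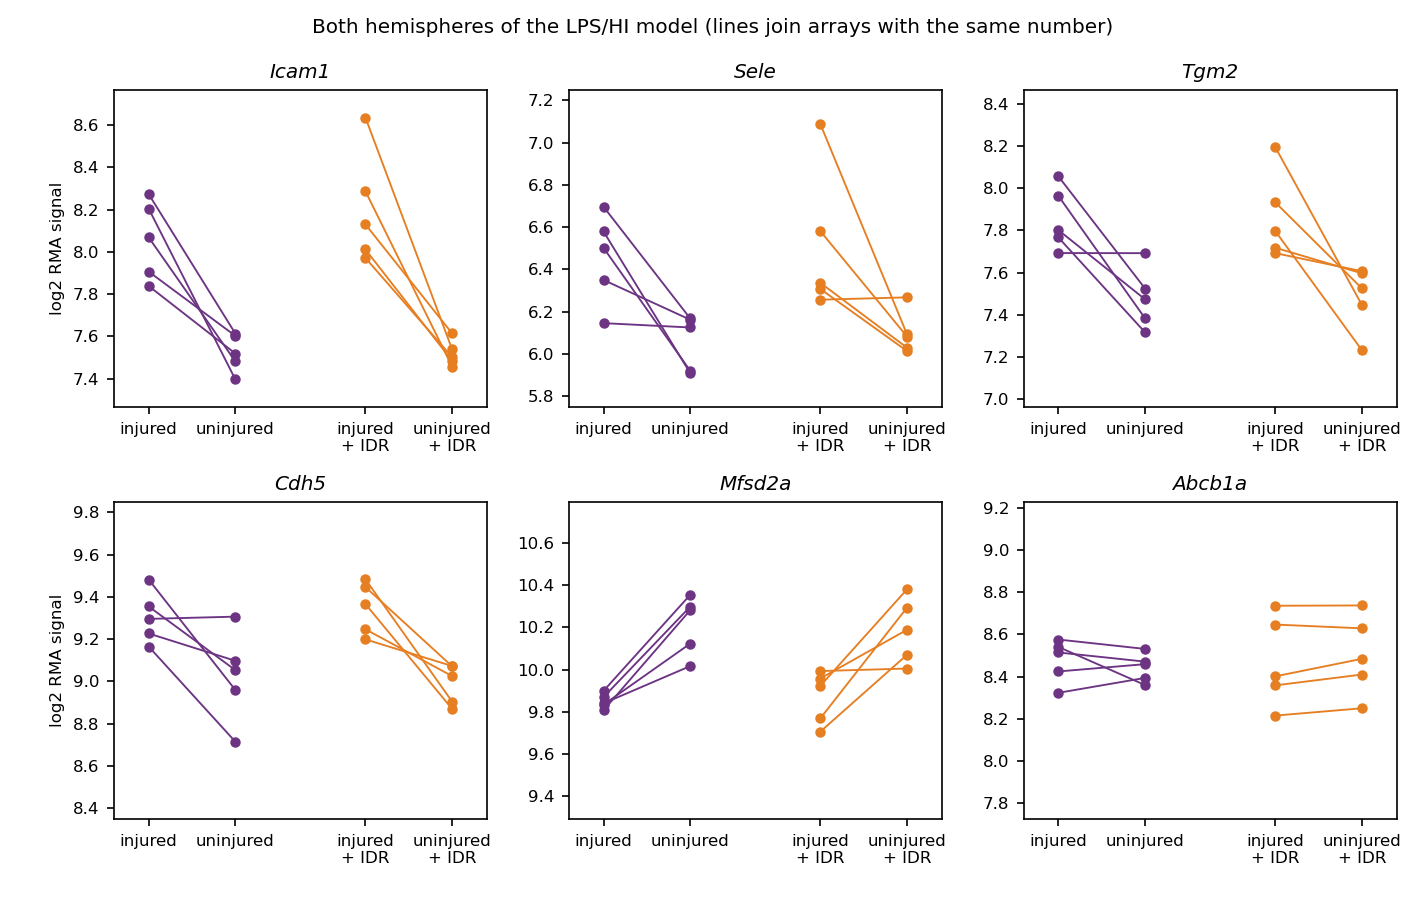
Log2 RMA signal (vertical axis) of 6 genes in the injured and the uninjured hemisphere, without and with peptide (horizontal axis), with lines joining arrays of the same number. Icam1 was higher in the injured hemisphere on 5 of 5 lines in both arms, and Mfsd2a lower on 5 of 5 lines in both arms. For both genes the groups did not overlap, so any joining of arrays gives these directions. Groups were apart for 5.03% of all genes without and 5.12% with peptide. With peptide the numbers were not taken as pairs. Abcb1a lines are close to flat.

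Among the junction genes, Cdh5 rose with injury in the peptide arm, and Cldn5 and Ocln were called in no comparison. VE-cadherin (Cdh5, probe set 10574438), the adhesive protein of endothelial adherens junctions, was 9.35, 9.16, 9.30, 9.23 and 9.48 in the injured hemisphere, against 9.05, 8.71, 9.31, 9.10 and 8.96 in the uninjured hemisphere. It was higher on the injured side for numbers 1, 2, 4 and 5 and level for number 3, and the groups overlapped. The injured array of number 3 held both sex-linked signals. The difference was 0.28 ± 0.10 (SE; limma adjusted p = 0.177), and 1 fit of all 8 groups called it (adjusted p = 0.0238). With peptide Cdh5 was 9.25, 9.48, 9.20, 9.37 and 9.45 injured, against 9.03, 8.90, 9.07, 8.87 and 9.07 uninjured, with no overlap. Here it rose by 0.36 ± 0.07 (SE), or 1.28-fold (limma adjusted p = 0.0229). In that comparison 5.12% of all genes had groups apart in either direction.

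The Cdh5 call with peptide was lost in 5 of 10 fits that left out 1 array each (injured replicate 2 or 5, uninjured replicate 1, 2 or 4), with adjusted p between 0.0541 and 0.0636 and differences between 0.33 and 0.37. The injury effect with peptide minus that without was 0.08, with a 95% interval of -0.18 to 0.34 (interaction, adjusted p = 1). The mean effect over both arms was 0.32 (adjusted p = 0.00149). In the injured hemisphere Cdh5 also stood above Vehicle on every array, where 8.74% of all genes had groups apart in either direction. The difference was 0.26 ± 0.07 (SE; limma adjusted p = 0.0391). Leaving out single arrays ended that call in 7 of 10 fits (injured replicate 1, 3 or 5, or Vehicle replicate 1, 3, 4 or 5), with adjusted p up to 0.107, and with Xist as a covariate the adjusted p was 0.147. The 14 endothelial markers averaged 8.27 injured and 8.25 uninjured without peptide, 8.33 injured and 8.29 uninjured with peptide, and 1 of them, Pecam1, rose with injury in each arm. Of all genes, injury raised 2.18% without and 1.8% with peptide.

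After LPS, Cdh5 was 8.76, 8.75, 8.84, 8.92 and 9.00, against 9.14, 9.14, 9.01, 8.95 and 9.00 in Vehicle brains. With peptide it was 8.78, 8.91, 9.02, 8.81 and 8.67, against 9.01, 9.04, 8.98, 8.99 and 9.16 in IDR brains. LPS arrays lay mostly below, with overlap in both arms. The differences were -0.20 in each arm (limma adjusted p = 0.431 without and 0.275 with peptide), and their mean over both arms was -0.20 (adjusted p = 0.0173), where 2.84% of all genes were called. Endothelial markers as a whole averaged 8.02 in LPS and 8.22 in Vehicle brains, with array ranges of 7.80 to 8.19 and 8.15 to 8.26. They averaged 8.02 in LPS with IDR and 8.22 in IDR brains, with ranges of 7.91 to 8.16 and 8.18 to 8.28. Of all genes, 0.833% were called in either direction after LPS alone and 1.47% with LPS in the peptide arm. Of the 14 markers, 1 fell after LPS and 4 fell with LPS in the peptide arm, among them Tek, the angiopoietin receptor, by 0.85 and 0.80 on the log2 scale. The part of this shift in the results on junction genes was not tested.

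Claudin-5 (Cldn5, probe set 10434229), the main claudin of brain endothelium, was 10.14, 10.65, 10.77, 10.75 and 10.46 after LPS, against 10.91, 10.999, 10.76, 10.90 and 10.54 in Vehicle brains. LPS replicate 1 was the lowest of all 40 arrays and the groups overlapped. The difference was -0.26, with a 95% interval of -0.52 to -0.01 (limma adjusted p = 0.78), and -0.16 without LPS replicate 1. With peptide it was -0.14 (limma adjusted p = 0.46). Between injured and uninjured hemispheres it was 0.13 without and 0.12 with peptide (limma adjusted p = 0.69 and 0.677).

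Occludin (Ocln, probe set 10411668), a membrane protein of tight junctions, had the narrowest span of the 9 genes. It averaged 7.60 ± 0.09 in LPS and 7.76 ± 0.09 in Vehicle brains (SD, n = 5 each), a difference of -0.17 with overlapping groups (limma adjusted p = 0.614), and -0.0034 with peptide (limma adjusted p = 0.992). The hemispheres differed by -0.07 without peptide, with a 95% interval of -0.24 to 0.10, and by 0.02 with peptide, with an interval of -0.14 to 0.18. Of 13 other junction components measured, none was called after LPS alone or between the hemispheres in either arm. With peptide, LPS raised 1 of 13, Cldn1, a claudin, by 0.34 (limma adjusted p = 0.00163), where 1.16% of all genes rose.

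Mfsd2a (probe set 10516064), a lipid carrier of brain endothelium that keeps vesicle transport low, fell in the injured hemisphere without peptide. In the injured hemisphere it was 9.84, 9.83, 9.90, 9.87 and 9.81, against 10.02, 10.12, 10.35, 10.30 and 10.28 in the uninjured hemisphere. The injured samples were tightly grouped and all lay below the uninjured ones, where 5.03% of all genes had groups apart. Mfsd2a fell by 0.36 on the log2 scale, with a standard error of 0.07, or 1.29-fold (limma adjusted p = 0.0157). Without uninjured replicate 4 it was -0.34 and the adjusted p was 0.0507.

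With peptide, injured Mfsd2a was 9.71, 9.77, 9.96, 9.99 and 9.92, against 10.07, 10.29, 10.19, 10.01 and 10.38 uninjured. The groups again did not overlap, and the difference was -0.32 ± 0.09 (SE; limma adjusted p = 0.0715). Groups without overlap were seen for 5.12% of all genes in that comparison. The mean over both arms was -0.34 (adjusted p = 2.16e-04).

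After LPS, Mfsd2a was 10.49, 10.38, 10.29, 10.31 and 10.51, against 10.04, 9.91, 10.20, 10.02 and 10.17 in Vehicle brains. All LPS arrays were above all Vehicle arrays, where 2% of all genes had groups apart in either direction. The difference of 0.33 ± 0.07 (SE) had a limma adjusted p of 0.0506. It passed the threshold in 2 of 10 fits that left out 1 array each, without Vehicle replicate 3 (0.0432) or 5 (0.0492). In the others the adjusted p reached 0.151. With peptide Mfsd2a was 10.33, 10.29, 10.39, 10.52 and 10.32 after LPS, against 9.92, 10.30, 10.04, 10.02 and 10.38 in IDR brains, which overlapped through IDR replicates 2 and 5. That difference was 0.24 ± 0.09 (SE; limma adjusted p = 0.324), and the mean over both arms was 0.28 (adjusted p = 0.00444). Against Vehicle, Mfsd2a in the injured hemisphere was lower by 0.22 on the log2 scale (limma adjusted p = 0.0541). The groups did not overlap, where 8.74% of all genes had groups apart in either direction. The adjusted p was 0.0453 with the replicate number as a block, where 11.5% of all genes were called. Of 10 fits that left out 1 array each, 1 called it, without Vehicle replicate 2 (0.03), and the adjusted p reached 0.132. Astrocyte markers averaged 10.2 in LPS and 10.1 in Vehicle brains, and 2 of the 9 rose after LPS, Gjb6, an astrocyte gap junction protein, by 0.62 and the receptor Fgfr3 by 0.51 (limma adjusted p = 0.00298 and 0.00774). Of all genes, 0.732% rose after LPS. Fgfr3 also fell by 0.44 on the log2 scale with injury without peptide (limma adjusted p = 0.0111). The part of astrocytes in the Mfsd2a result was not tested.

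P-glycoprotein (Abcb1a, probe set 10519527), the main drug efflux pump of the barrier, rose in the injured LPS/HI hemisphere against Vehicle, and was not called between the hemispheres. It was 8.42, 8.58, 8.32, 8.51 and 8.54 injured and 8.46, 8.53, 8.39, 8.47 and 8.36 uninjured, against 8.15, 8.30, 8.12, 8.10 and 8.20 in Vehicle brains. Both hemispheres stood above Vehicle without overlap, in comparisons where 8.74% of all genes (injured) and 1.76% (uninjured) had groups apart in either direction. The LPS/HI groups and Vehicle differed in LPS, in HI and in time after vehicle together, which cannot be told apart. The injured hemisphere was higher than Vehicle by 0.30 ± 0.07 (SE), or 1.23-fold (limma adjusted p = 0.0122). The uninjured one was higher by 0.27 ± 0.06 (SE; limma adjusted p = 0.112), and its mean over both peptide arms was 0.30 (adjusted p = 0.00214), where 1.52% of all genes were called. Endothelial markers averaged 8.27 injured and 8.25 uninjured, against 8.22 in Vehicle brains. Of these 14 markers, Vwf, the von Willebrand clotting factor, rose by 0.57 uninjured and 0.76 injured against Vehicle (limma adjusted p = 0.0267 and 1.53e-04). Pecam1 also rose in the injured hemisphere against Vehicle, by 0.31, and Itm2a fell, by 0.35 on the log2 scale (limma adjusted p = 0.0183 and 0.00606). Their part in the Abcb1a result was not tested.

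The hemispheres differed in Abcb1a by 0.03 without peptide, with a 95% interval of -0.11 to 0.18, and by -0.03 with peptide, with an interval of -0.27 to 0.21. At 6 h after LPS it was 7.63, 7.94, 8.05, 8.24 and 8.04, with replicate 1 the lowest and replicate 4 the highest, and overlapped Vehicle (difference -0.19, limma adjusted p = 0.849). Without LPS replicate 1 the difference was -0.11. The uninjured hemisphere stood above LPS by 0.46 ± 0.09 (SE) with no overlap, where 1.2% of all genes had groups apart. The limma adjusted p was 0.0965. Of 10 fits that left out 1 array each, 1 called it, without LPS replicate 4 (0.0481), and the adjusted p reached 0.278. The mean difference over both arms was 0.40 (adjusted p = 9.78e-04).

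Among 15 other barrier transporters, Slc2a1, the glucose carrier, rose after LPS by 0.56 without and 0.69 with peptide (limma adjusted p = 3.92e-04 and 2.02e-04). It was also higher in the uninjured and the injured LPS/HI hemisphere than in Vehicle, by 0.40 and 0.57 (limma adjusted p = 0.0168 and 0.004). Slc22a8, an organic anion carrier, was lower in the injured than in the uninjured hemisphere by 0.44 without and 0.41 with peptide, on the log2 scale (limma adjusted p = 0.0207 and 0.0363). It fell with LPS in the peptide arm as well, by 0.39. In that comparison 2 of the 15 rose and 2 fell, where 1.16% of all genes rose and 1.47% were called. Against Vehicle, 4 of the 15 rose and 3 fell in the injured hemisphere, where 4.45% of all genes rose and 8.34% were called. The amino acid carrier Slc38a5 was among those lower, at -0.54 (limma adjusted p = 0.014).

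Of 7 genes of transcytosis and fenestrae, injury raised 2 in each arm, where 2.18% of all genes rose without and 1.8% with peptide. Cav1, the coat protein of caveolae, rose by 0.46 without and 0.47 with peptide (limma adjusted p = 0.0188 and 0.0109). The second was Cavin2 without peptide, at 0.38 (limma adjusted p = 0.0212), and Cavin1 with peptide, at 0.30 (limma adjusted p = 0.0353), both caveolar coat proteins. The median over the 7 was 0.25 without and 0.30 with peptide, beside 0.01 and 0.00 for all genes. With LPS in the peptide arm Cav1 fell by 0.34 on the log2 scale (limma adjusted p = 0.0296), and without peptide its difference was -0.27 and none of the 7 was called.

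The endothelial Wnt programme, which maintains the barrier, was measured through 16 genes. Wnt7a, a ligand made by neural cells, fell after LPS by 0.39 without and 0.42 with peptide, on the log2 scale (limma adjusted p = 0.0126 and 0.00741). Nkd1, a feedback inhibitor of the pathway, fell by 0.29 with LPS in the peptide arm (limma adjusted p = 0.0433). None of the 16 rose with LPS, and none was called between the hemispheres in either arm.

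Tissue transglutaminase (Tgm2, probe set 10489204), an enzyme that cross-links proteins and is made by endothelium and other cells, had the largest LPS effect of the 9 genes. Its log2 signal was 8.21, 8.17, 7.97, 8.15 and 8.17 after LPS, against 7.33, 7.37, 6.99, 7.34 and 7.14 in Vehicle brains. The groups were far apart, with replicate 3 the lowest in each, and 2% of all genes had groups without overlap. The difference was 0.90 ± 0.08 (SE), or 1.87-fold (limma adjusted p = 2.65e-05), and 0.80 with Xist as a covariate (adjusted p = 0.00158). With peptide Tgm2 was 8.20, 8.32, 7.97, 8.06 and 8.13 after LPS, against 7.17, 7.36, 7.33, 7.27 and 7.44 in IDR brains, again apart. That difference was 0.82 ± 0.07 (SE), or 1.77-fold (limma adjusted p = 4.56e-05). With peptide 3.42% of all genes had groups apart.

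In the injured hemisphere Tgm2 was 7.96, 7.77, 7.69, 7.80 and 8.06, against 7.38, 7.32, 7.69, 7.47 and 7.52 in the uninjured hemisphere. The groups did not overlap, as for 5.03% of all genes, but injured and uninjured replicate 3 were equal to 2 decimals. Injured replicate 3 held both sex-linked signals, and uninjured replicate 3 held Xist alone. Tgm2 rose by 0.38 ± 0.09 (SE), or 1.30-fold (limma adjusted p = 0.0333). The call was lost in 8 of 10 fits that left out 1 array each, all but those without replicate 3 of either side, with adjusted p between 0.0539 and 0.092. These fits had no block. With all arrays and the replicate number as a block the limma adjusted p was 0.0185, where 10.2% of all genes were called. With peptide the injured samples had 7.80, 8.20, 7.69, 7.72 and 7.93, against 7.23, 7.45, 7.61, 7.60 and 7.53 uninjured, without overlap. That difference was 0.39 ± 0.10 (SE; limma adjusted p = 0.0683), and the mean over both arms was 0.38 (adjusted p = 7.1e-04). With peptide 5.12% of all genes had groups apart.

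The uninjured hemisphere held less Tgm2 than the brains taken 6 h after LPS, by 0.66 on the log2 scale with no overlap (limma adjusted p = 0.0023). It was the only one of the 9 members called there, where 0.11% of all genes fell, 0.135% were called and 1.2% had groups apart. Against Vehicle the injured hemisphere was higher by 0.62 ± 0.09 (SE), or 1.54-fold (limma adjusted p = 7.06e-04). The uninjured hemisphere differed from Vehicle by 0.25, with a 95% interval of 0.05 to 0.44 (limma adjusted p = 0.564). Of the 7 other transglutaminases, none was called after LPS in either arm. Tgm1, the enzyme known from skin, rose with injury by 0.49 without and 0.46 with peptide (limma adjusted p = 0.00236 and 0.00221).

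Whether the peptide alters these genes was asked in 4 settings: alone, with LPS, and in each LPS/HI hemisphere. No member was called in any of them, and none of the 19937 genes was called in IDR against Vehicle (0%), LPS with IDR against LPS (0%), the injured hemisphere (0%) or the uninjured hemisphere (0%). At an unadjusted p under 0.05, limma gave 321, 2674, 277 and 376 genes in that order, and 1 member in all, Vcam1 with LPS. The members' differences, with minus without peptide, were at most 0.19 in size, and all their 95% intervals lay between -0.43 and 0.42. LPS with IDR against LPS set 2 of 5 arrays with Xist alone against 5 of 5, and with Xist as a covariate larger differences were fitted there. They were -0.31 for Icam1 (-0.09 without the covariate), -0.22 for Sele, 0.23 for Abcb1a and 0.20 for Ocln, with limma adjusted p between 0.574 and 0.601. Only Vcam1 in LPS with IDR against LPS had groups without overlap, higher with IDR by 0.15 (limma adjusted p = 0.334, unadjusted p = 0.0232), where 2.76% of all genes had such groups. A p above the threshold does not show that the peptide leaves these genes alike.

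No member was called for a difference between the LPS effects with and without peptide (interaction, limma adjusted p between 0.86 and 0.991), where 0.00502% of all genes, 1 gene, were called and 873 had an unadjusted p under 0.05. None was called for a difference between the injury effects with and without peptide (adjusted p = 1), where 0% of genes were called and 361 had an unadjusted p under 0.05. No member had an unadjusted p under 0.05 in either interaction. The median half-width of the members' 95% intervals was 0.15 to 0.22 between groups, and 0.23 and 0.29 for the interactions, a precision set by the number of arrays.

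**Figure D4:**
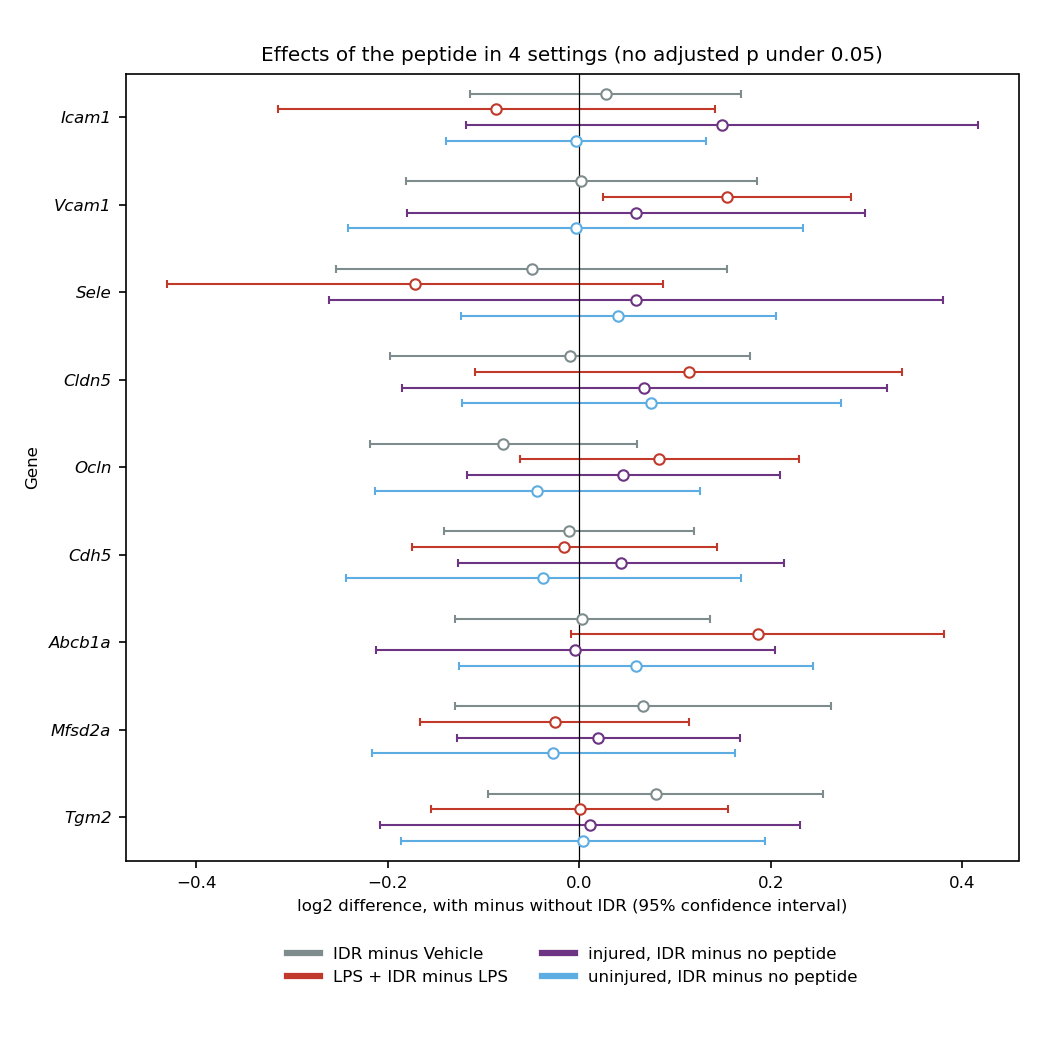
Log2 difference, with minus without IDR, and its 95% confidence interval (horizontal axis) for each of the 9 genes (rows) in 4 settings of 5 arrays against 5. No difference had an adjusted p under 0.05. The interval of Vcam1 after LPS, 0.02 to 0.28, is the only one that leaves out 0.

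Neighbouring groups in the order of each gene's means were mostly within each other's range. For Icam1, Sele, Cldn5, Ocln and Mfsd2a all 7 neighbouring pairs overlapped. For Vcam1 LPS with IDR stood apart from LPS, the next below, with means 0.15 apart and nearest arrays at 9.7339 and 9.7333. For Cdh5 the injured group without peptide stood apart from Vehicle, the next below, with means 0.26 apart and nearest arrays at 9.16 and 9.14. For Abcb1a uninjured LPS/HI without peptide stood apart from IDR, the next below, with means 0.27 apart and nearest arrays at 8.36 and 8.31. The means of all 4 LPS/HI groups lay above the other 4, but the arrays of the LPS/HI groups with peptide reached down to 8.22 and 8.25, within the range of IDR arrays. For Tgm2 injured LPS/HI without peptide stood apart from uninjured LPS/HI with IDR, with means 0.37 apart and nearest arrays at 7.69 and 7.61. Of all genes, 2.76% had groups apart in either direction for the Vcam1 pair and 8.74% for the Cdh5 pair. For the Abcb1a and Tgm2 pairs that share was not computed. The order was set by these same means, so the gaps describe the arrays and test nothing.

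Genes with signals most like a member's over all 40 arrays were taken by Pearson's r, as a description. These arrays share their groups, so genes that move with LPS or injury resemble one another. Icam1 was most like Csf1, a growth factor of microglia and macrophages (r = 0.92, Spearman's rho = 0.86), Tlr2, a receptor of bacterial lipoproteins (0.89 and 0.83), and Ier3, an early response gene (0.89 and 0.87). Sele was most like Icam1 (0.83 and 0.75), then Socs3, an inhibitor of cytokine signalling (0.80 and 0.77), and Plaur, the urokinase receptor (0.79 and 0.63). Csf1 averaged 8.40 ± 0.11 in the injured and 7.80 ± 0.11 in the uninjured hemisphere without peptide (SD, n = 5 each).

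Cdh5 was most like Gjb2, a gap junction protein (r = 0.89, rho = 0.84), Thbd, the endothelial thrombin receptor thrombomodulin (0.87 and 0.81), and Ehd2 (0.86 and 0.80). Abcb1a was most like Lair1, an inhibitory receptor of immune cells (0.84 and 0.83), Ptprb, a phosphatase of endothelium (0.83 and 0.76), and Nckap1l, an actin regulator of blood-derived cells (0.80 and 0.81). Lair1 averaged 7.08 ± 0.11 in the injured and 7.09 ± 0.15 in the uninjured hemisphere, against 6.78 ± 0.07 in Vehicle brains (SD, n = 5 each). Mfsd2a was most like Fgfr3, a growth factor receptor of astrocytes (0.86 and 0.83), Cspg4, found in oligodendrocyte precursors and pericytes (0.85 and 0.82), and Hif3a (0.84 and 0.82). Fgfr3 averaged 10.02 ± 0.16 in LPS and 9.51 ± 0.14 in Vehicle brains, and 9.40 ± 0.13 injured and 9.85 ± 0.13 uninjured.

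Tgm2 was most like Parp14, an interferon-induced enzyme (r = 0.89, rho = 0.90), Casp4, an inflammatory caspase (0.88 and 0.90), and Lcn2, an acute phase protein (0.88 and 0.89). Parp14 averaged 7.28 ± 0.19 in LPS and 6.26 ± 0.15 in Vehicle brains (SD, n = 5 each). Vcam1 was most like Gabrb1, a receptor subunit for the transmitter GABA (0.83 and 0.78), Rab27b (0.83 and 0.82) and Echdc1 (0.82 and 0.78). Cldn5 was most like Cpt1a, an enzyme of fatty acid oxidation (0.83 and 0.75), Tgfbr1, a receptor of transforming growth factor beta (0.83 and 0.83), and Prpf4b (0.83 and 0.75).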

How the data were processed

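Total RNA of 40 mouse brain samples, 5 in each of 8 groups, was measured on Affymetrix arrays. The deposited values are log2 signals that the authors made with RMA, per the submitters' processing notes, which also name the affy package. RMA corrects background, equalises the distribution of values between arrays and summarises probes, which hides any change common to every gene. Versions and genome build are not given in the sources used here. Of 34760 probe sets, 21640 carried 1 symbol in the array annotation, 1321 several and 11799 none. Those with 1 symbol gave 19937 genes, with the highest-mean probe set for the 954 genes that had several, and no filter on signal.

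Groups came from the labels. Each comparison used limma 3.58.1 (lmFit and eBayes, R 4.3.3) on the arrays compared, with Benjamini-Hochberg adjustment over all genes and a threshold of 0.05. Interactions used 20 arrays. The procedure was tested on simulated data. Figures used matplotlib 3.10.9 in Python 3.11.15. Promoters came from RefSeq (250 bases upstream).

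The members and lists were chosen with earlier results of these data known. All members were named, with up to 3 called genes by size from each list and comparison, or at most 1 by p where none was called. Like genes were the 3 with the highest r, given where the first reached 0.8, passing over clone names, olfactory receptors, Xist and Y-linked genes.

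Alternatives were 1 fit of all 8 groups, a filter at the olfactory receptor median (4.26), the mean of probe sets, median centring, the replicate number as a block, Xist as a covariate and leaving out each array. The mean over both peptide arms, alone and with the block, and leaving out the array with both sex-linked signals were added after seeing the data.

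Whether label numbers pair the arrays was checked by correlating same-numbered arrays' deviations from their group means. For the hemispheres without peptide the 5 correlations were 0.39 to 0.65, so these numbers were taken as pairs. That pairing enters only the fits with the replicate number as a block. All other differences, standard errors and adjusted p-values come from fits without it. With peptide, the hemispheres gave 0.09 to 0.59 and were not taken as pairs. The sex-linked class was the same in both hemispheres for 4 of 5 numbers without and 5 of 5 with peptide. For injured LPS/HI against Vehicle the correlations were 0.12 to 0.44. These groups had different treatments, so a block on their numbers cannot pair samples of 1 animal. The labels do not say that both hemispheres came from the same animal.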

Additional observations from a re-analysis of the deposited data

Results flagged for a closer look

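In 72 groups of 5 arrays, 1 for each measured gene and condition, the gap between an extreme array and its neighbour was set against the range of the group, and 2 groups exceeded Dixon's critical value of 0.71. Chance alone flags about 1 in 20 such groups. Vcam1 stood at 9.27 on IDR replicate 5, with the other 4 IDR arrays between 9.59 and 9.69 on the log2 scale. Tgm2 stood at 7.97 on LPS replicate 3, with the other 4 LPS arrays between 8.15 and 8.21. Leaving out LPS replicate 3 kept the Tgm2 difference from Vehicle past the threshold, as did every other fit that left out 1 array (0.84 to 0.94).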

How the results depend on the processing

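No member's difference changed direction past the threshold under the alternatives run. Leaving out each array in turn, the members called ranged from 2 to 3 for LPS against Vehicle, 1 to 4 for injury without peptide, 1 to 2 for injury with peptide, 3 to 5 for the injured hemisphere against Vehicle and 1 to 2 for the uninjured hemisphere against LPS, and stayed at 1 for LPS with IDR against IDR and at 0 elsewhere. Over all genes the same fits called 137 to 175, 285 to 641, 230 to 515, 964 to 1798 and 15 to 27 genes in that order, and 203 to 286 for LPS with IDR against IDR. Icam1 stayed called in all of these fits in its 3 main comparisons (LPS 0.40 to 0.47, injury 0.48 to 0.59 without and 0.58 to 0.75 with peptide).

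With 1 fit of all 8 groups, 5 members were called for injury with peptide and 2 in the uninjured hemisphere against LPS, and genes called were 1431, 1432 and 69 for injury without peptide, injury with peptide and uninjured against LPS. With Xist as a covariate, 1 member was called for LPS against Vehicle (Tgm2), 4 for injury with peptide, and Sele lost its injury call at a difference of 0.40 (adjusted p = 0.0661), as it did with median centring at 0.37 (0.0662), against 0.40 as reported. Mfsd2a after LPS was called in the fit of all groups, with the signal filter, the mean of probe sets and median centring (adjusted p = 0.0277, 0.0461, 0.0499 and 0.0476). It was not called with the replicate number as a block (0.0671) or with Xist as a covariate (0.0974). Genes called with that covariate were 86 for LPS, 1083 for injury with peptide, and 52, 917 and 13 for uninjured against Vehicle, injured against Vehicle and uninjured against LPS. Averaging over both peptide arms, which has 10 arrays a side, called 4 members for LPS, 1 for uninjured against Vehicle and 4 for uninjured against LPS. Genes called were then 566, 304 and 283, with 4000 for injured against Vehicle and 2545 for injury (3943 with the block). The interaction of LPS and IDR went to 0 genes in the fit of all groups and with the block. Without injured replicate 3, which held both sex-linked signals, 4 members and 641 genes were called for injury.

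With the replicate number as a block, 4 members were called for injury without peptide and 2 with peptide, as without it, with 2032 and 894 genes, against 596 and 498 without the block. Without peptide the limma adjusted p with the block was 0.00373 for Icam1, 0.0259 for Sele, 0.00576 for Mfsd2a and 0.0185 for Tgm2. Cdh5 stayed uncalled there at 0.0519. In the injured hemisphere against Vehicle the block added Sele (adjusted p = 0.0185) and Mfsd2a (0.0453), and it changed no other member's call. The cause of these changes was not tested, beyond the numbers of arrays given.

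With 5 arrays a group, differences under about 0.2 on the log2 scale are within most intervals. Larger differences can also go uncalled. Of genes simulated with a difference of 0.3, 20.9 to 46.3% were called between groups. For the interactions 17.9% (LPS and IDR) and 4.48% (injury and peptide) were called. At a simulated difference of 0.5, 67.2 to 89.6% were called between groups. Sele lies close to background. The LPS and Vehicle groups differ in sex-linked transcripts, which cannot be fully told apart from LPS with 5 LPS arrays of 1 kind.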
